A study of Homo sapiens with 6 samples.

Results

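The ID, MSX and BAMBI genes are commonly read as a response to bone morphogenetic protein (BMP) signaling. The 7 genes ID1, ID2, ID3, ID4, MSX1, MSX2 and BAMBI were taken by gene identifier from the 40396 genes of the expression table, and all 7 were listed. The cells were H1, an established line of human embryonic stem cells. In all 6 samples they were differentiated toward definitive endoderm (DE) for 3 days on Matrigel with 50 ng/mL activin A, and, during the opening 24 h, with the Wnt pathway agonist CHIR99021 at 2.5 µM. The 3 SAR samples received 0.5 µM saracatinib, known as a Src family kinase inhibitor, over all 3 days, and the 3 control samples received an equal volume of DMSO. The authors report that this dose did not effectively lower Src phosphorylation, while phosphorylation of focal adhesion kinase fell. No separate BMP ligand or BMP inhibitor is named among the additions of either group. Whether the replicates came from separate cultures is not stated, so the p-values measure the spread between these samples, which may be technical.

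BMP ligands bind receptor serine/threonine kinases that phosphorylate SMAD1, SMAD5 and SMAD9. With SMAD4 these enter the nucleus and switch on target genes, of which the ID genes are among the most direct. ID1 to ID4 encode helix-loop-helix proteins without a DNA-binding region. They pair with E proteins and so keep tissue-specific basic helix-loop-helix (bHLH) factors from DNA. MSX1 and MSX2 encode homeodomain repressors that respond to BMP in mesoderm, neural crest and limb. BAMBI is a membrane pseudoreceptor that resembles type I receptors, lacks the kinase part and dampens BMP, activin and TGF-beta signaling. Several of these genes are also known to respond to Wnt or TGF-beta signals, so they are not specific to BMP.

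Read totals were recovered as the depth by which the FPKM (fragments counted per length of gene and per depth of library) were scaled. They lay between 18877964 and 24419937 for the control libraries and between 16681280 and 18389543 for the SAR libraries. More genes had a value above 0 in control replicate 1, 33169, than in any other library (29506 to 30109). The 9 genes taken as DE markers were all detected and tested. SOX17, FOXA2, HHEX and KIT were higher with SAR, while CXCR4, GATA4, GATA6, CER1 and EOMES were lower (adjusted p under 0.05 for each, limma). By the same rule, 23.7% of all tested genes were higher and 9.55% were lower. Over the 16371 tested genes, the log2 fold changes had a median of 0.12. Median-ratio rescaling of the libraries brings that middle value to 0.0. Rescaled values are given for the tested genes among the 7 and for a few other results. Values and counts not marked as rescaled are from the FPKM as deposited.

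The promoter-proximal sequences of the 4 ID genes, of MSX2 and of BAMBI are shown so that genes that rose, a gene that fell and a gene that did not pass the test can be set side by side. Each is the 250 bases before the RefSeq start of the gene on GRCh38.p14, read along the strand of the gene. They lie at chr20:31605039-31605288 (plus strand) for ID1, chr2:8681806-8682055 (plus) for ID2, chr1:23559502-23559751 (minus) for ID3, chr6:19837120-19837369 (plus) for ID4, chr5:174724332-174724581 (plus) for MSX2 and chr10:28677271-28677520 (plus) for BAMBI. The windows of ID2 and ID3 lie within the wider GENCODE 29 bounds of those genes, and those of ID1, MSX2 and BAMBI reach into them, the last over most of its length, since RefSeq and GENCODE place the starts differently. Capitals mark 4 sets of letters on either strand: GGCGCC, the GC-rich element bound by SMAD1 and SMAD5, CAGAC, a SMAD3 and SMAD4 box, TATAAA, the TATA box, and CCAAT, the CCAAT box.
ID1: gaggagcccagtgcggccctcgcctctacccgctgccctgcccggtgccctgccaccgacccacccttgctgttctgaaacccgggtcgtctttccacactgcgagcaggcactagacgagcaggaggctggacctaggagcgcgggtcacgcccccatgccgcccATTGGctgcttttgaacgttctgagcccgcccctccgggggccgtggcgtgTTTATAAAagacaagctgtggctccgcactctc
ID2: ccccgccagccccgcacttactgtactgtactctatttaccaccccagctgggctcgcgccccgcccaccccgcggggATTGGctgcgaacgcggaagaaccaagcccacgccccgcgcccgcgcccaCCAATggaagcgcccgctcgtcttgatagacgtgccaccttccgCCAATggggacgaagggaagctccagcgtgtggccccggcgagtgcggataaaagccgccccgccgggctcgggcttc
ID3: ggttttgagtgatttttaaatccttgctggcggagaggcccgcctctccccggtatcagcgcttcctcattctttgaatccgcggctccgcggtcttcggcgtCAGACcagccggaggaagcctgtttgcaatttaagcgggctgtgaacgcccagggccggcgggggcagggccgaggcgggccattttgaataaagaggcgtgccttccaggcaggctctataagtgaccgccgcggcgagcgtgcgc
ID4: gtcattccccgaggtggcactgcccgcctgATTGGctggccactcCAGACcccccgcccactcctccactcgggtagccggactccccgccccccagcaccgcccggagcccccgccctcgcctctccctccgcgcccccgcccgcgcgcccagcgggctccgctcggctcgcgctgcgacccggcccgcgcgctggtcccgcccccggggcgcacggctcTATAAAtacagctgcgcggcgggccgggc
MSX2: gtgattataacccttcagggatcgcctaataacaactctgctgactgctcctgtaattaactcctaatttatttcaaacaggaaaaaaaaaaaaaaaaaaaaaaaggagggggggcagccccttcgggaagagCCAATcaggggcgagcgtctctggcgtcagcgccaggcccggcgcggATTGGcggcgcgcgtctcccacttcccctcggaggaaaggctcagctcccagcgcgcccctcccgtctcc
BAMBI: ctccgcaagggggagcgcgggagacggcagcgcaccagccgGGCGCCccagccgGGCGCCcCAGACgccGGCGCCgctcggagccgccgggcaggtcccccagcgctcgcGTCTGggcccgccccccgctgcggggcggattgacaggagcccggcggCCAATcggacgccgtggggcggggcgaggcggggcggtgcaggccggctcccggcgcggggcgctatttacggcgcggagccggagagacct
GGCGCC stood in the window of BAMBI at 3 places and in none of the other 6 genes, against 16.4% of 35116 RefSeq promoters of the same length. CAGAC stood in ID3, ID4 and BAMBI (3 of 7 genes, 38.0% of promoters), and TATAAA in ID1 and ID4 (2 of 7 genes, 10.7% of promoters). CCAAT stood in 6 of 7 genes, all but ID3, against 32.0% of promoters. A match of letters is a description of the sequence and does not show that a factor binds there. Only these 250 bases were searched, so the lack of a match does not show that a gene lacks the element elsewhere. The shares were taken over all promoters, not over those of like GC content. GC content of the windows ran from 55.6% in MSX2 to 81.2% in BAMBI.

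All 4 ID genes rose with SAR, MSX2 fell and BAMBI did not pass the test. The log2 fold changes of ID3 and ID4 were 1.13 and 1.11, those of ID1 and ID2 0.74 and 0.45. In bulk RNA, fewer or more cells that express a gene and less or more RNA per cell cannot be told apart. Of the 7 genes, 4 were higher and 1 was lower at an adjusted p under 0.05 (limma, Benjamini-Hochberg over all tested genes), where 23.7% of all tested genes were higher and 9.55% were lower. With a log2 fold change past 1 required as well, 2 were higher (ID3 and ID4) and 1 was lower (MSX2), where 3.41% and 1.58% of all tested genes were. After rescaling, ID4 was at 0.99 and only ID3 of the ID genes stayed above 1. The libraries of the groups did not overlap for 5 of the 6 tested genes, 4 higher and 1 lower, where 50.7% of all tested genes did not overlap (35.5% higher and 15.2% lower). MSX1 had a mean of 0.463 FPKM, under the minimum of 0.5 FPKM, and was not tested. MSX2, with a mean of 0.529 FPKM, passed that minimum because of its level in control.

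**Figure D1:**
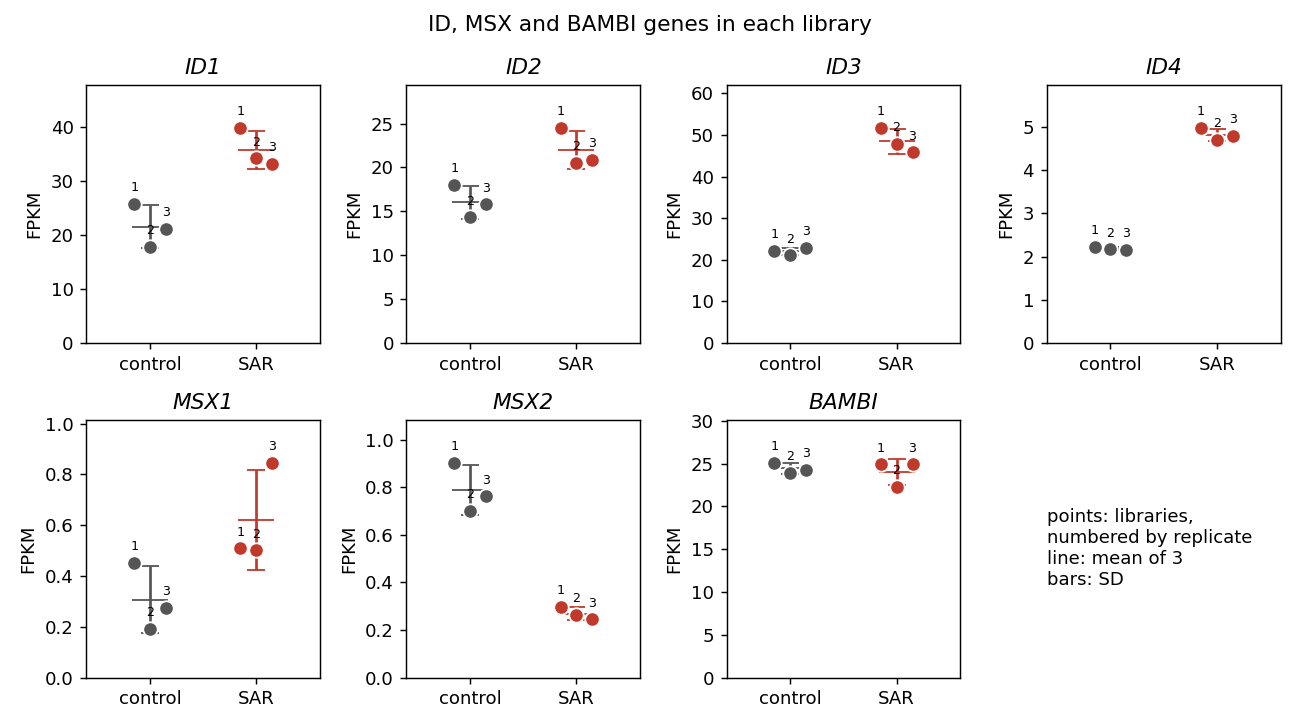
FPKM of each of the 7 genes in the 3 control and 3 SAR libraries, with each axis starting at 0. Points are libraries numbered by replicate, the line is the mean and the bars are the SD. The groups are apart for each gene but BAMBI, upward with SAR for ID1 to ID4 and MSX1 and downward for MSX2.

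ID1 (ENSG00000125968) lies on chromosome 20 from 31605283 to 31606515 on the plus strand (GENCODE 29, GRCh38). It had 25.7, 17.8 and 21.1 FPKM in control replicates 1 to 3 and 39.8, 34.2 and 33.2 FPKM in SAR replicates 1 to 3. The groups did not overlap, and control replicate 1 was the highest control library and SAR replicate 1 the highest of all. The means were 21.6 ± 3.97 and 35.7 ± 3.54 FPKM (SD, n = 3), which is a rise of 0.74 on the log2 scale (95% interval 0.41 to 1.06, adjusted p = 0.00876, limma), and 0.62 after rescaling.

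ID2 (ENSG00000115738), on chromosome 2 from 8678845 to 8684453, had the smallest log2 fold change of the ID genes. Its levels were 18.0, 14.3 and 15.8 FPKM in control and 24.5, 20.5 and 20.9 FPKM with SAR. SAR replicate 2, the lowest of its group, lay 2.48 FPKM above control replicate 1, the highest of the controls. The log2 fold change was 0.45 (95% interval 0.20 to 0.70, adjusted p = 0.0185 from limma), and 0.33 after rescaling (adjusted p = 0.0467). ID2 lost its call without control replicate 2 (0.37, adjusted p = 0.054 from limma) and without control replicate 3 (0.44, adjusted p = 0.0631).

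ID3 (ENSG00000117318), on the minus strand of chromosome 1 from 23557918 to 23559794, showed the highest level with SAR. It had 22.2, 21.1 and 22.8 FPKM in control and 51.7, 47.9 and 45.8 FPKM with SAR. The gap between the groups, 23.0 FPKM, was larger than any control level, and the libraries of each group lay close together. The means of 22.0 ± 0.844 and 48.5 ± 2.98 FPKM (SD, n = 3) gave a log2 fold change of 1.13 (95% interval 0.98 to 1.28, adjusted p = 0.000178 from limma), and 1.01 after rescaling. Of all tested genes, 3.1% had a larger log2 fold change.

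ID4 (ENSG00000172201), on chromosome 6 from 19837386 to 19840684, stood far below the other ID genes in level per length. It had 2.22, 2.17 and 2.16 FPKM in control and 4.98, 4.71 and 4.79 FPKM with SAR, on 158 to 205 reads per library without SAR and 309 to 341 with it. Its replicates were the closest of the 7 genes, with a coefficient of variation of 1.37% in control and 2.94% with SAR. The log2 fold change was 1.11 (95% interval 0.95 to 1.27, adjusted p = 0.000238 from limma), and 0.99 after rescaling.

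MSX2 (ENSG00000120149), on chromosome 5 from 174724533 to 174730893, went the other way. It had 0.903, 0.700 and 0.762 FPKM in control (44, 38 and 32 reads) and 0.297, 0.265 and 0.245 FPKM with SAR (11, 10 and 10 reads). All 3 SAR libraries were below all 3 control libraries, and the ratio of the means was 0.34. The log2 fold change on the log2(FPKM + 0.1) scale was -1.26 (95% interval -1.85 to -0.68, adjusted p = 0.0101 from limma), -1.36 after rescaling and -0.49 with a pseudocount of 1. Without any 1 control library MSX2 fell under the minimum of 0.5 FPKM, and with no minimum its adjusted p was then 0.0432, 0.0543 and 0.0751 without control replicates 1, 2 and 3 (limma), and 0.0554 without SAR replicate 2.

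MSX1 (ENSG00000163132), on chromosome 4 from 4859666 to 4863936, was the lowest of the 7 genes in control. It had 0.452, 0.193 and 0.275 FPKM in control (21, 10 and 11 reads) and 0.509, 0.501 and 0.846 FPKM with SAR (18, 18 and 33 reads). The groups stood only 0.0488 FPKM apart, with control replicate 1 close to the lower SAR libraries. The means of log2(FPKM + 0.1) differed by 0.84, which did not pass the test when no minimum was set (adjusted p = 0.199 from limma).

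BAMBI (ENSG00000095739), on chromosome 10 from 28677342 to 28682939, had the highest mean of the 7 genes in control. It had 25.1, 23.9 and 24.3 FPKM in control and 24.9, 22.3 and 24.9 FPKM with SAR, so that the groups overlapped. The log2 fold change was -0.03 (95% interval -0.17 to 0.12, adjusted p = 0.752 from limma), and -0.15 after rescaling (95% interval -0.29 to -0.01, adjusted p = 0.105). On the same scale, each interval ends below that of ID2, the ID gene with the smallest log2 fold change. The ID2 interval was 0.20 to 0.70, and 0.09 to 0.56 after rescaling.

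**Figure D2:**
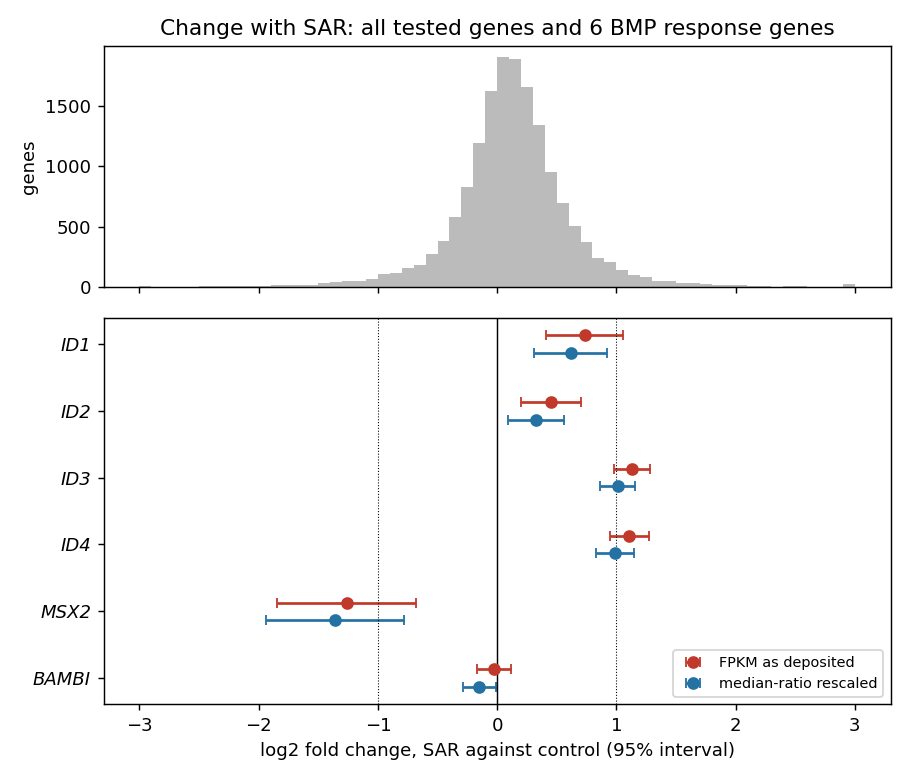
Log2 fold change with SAR of the 6 tested genes with its 95% interval (bottom), from the FPKM as deposited and after median-ratio rescaling, below the distribution over 16371 tested genes (top, values past 3 in either direction placed in the end bins). Dotted lines mark 1 and -1. ID3 and ID4 lie close to 1, ID1 and ID2 between 0 and 1, MSX2 below -1 and BAMBI at 0.

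The order of the levels changed between the groups, read in FPKM and so per length of gene. In control, BAMBI (24.5 FPKM) stood just above ID3 (22.0), and ID3, ID1 (21.6) and ID2 (16.1) overlapped between neighbours. ID4, MSX2 and MSX1 followed, each apart from the next. With SAR, ID3 (48.5 FPKM) came highest, then ID1 (35.7), and BAMBI (24.0) and ID2 (22.0) overlapped. MSX1 (0.619 FPKM) stood above MSX2 (0.269) with SAR and below it in control.

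Summed over ID1 to ID4, expression was 68.2, 55.4 and 61.9 FPKM in control and 121.0, 107.3 and 104.7 FPKM with SAR, a ratio of means of 1.8. The shares of ID2, ID3 and ID4 in that sum were apart between the groups, and the share of ID1 overlapped. These shares were not tested. ID3 made up 35.8% ± 2.90 of the sum in control and 43.7% ± 0.959 with SAR (SD, n = 3), while ID2 made up 26.0% ± 0.446 and 19.8% ± 0.585. Ratios of paralogs within a library, on the log2(FPKM + 0.1) scale, depend little on how libraries are scaled, and 7 pairs were compared. The log2 ratio of ID2 to ID3 was -0.30, -0.56 and -0.52 in control and -1.07, -1.22 and -1.13 with SAR, a difference of -0.68. The ratio of ID2 to ID4 differed by -0.66, of ID1 to ID3 by -0.40, of ID1 to ID4 by -0.37 and of ID1 to ID2 by 0.29. In each of these 5 pairs the groups did not overlap (exact two-sided permutation test, p = 0.1 for each, the smallest that 3 against 3 libraries allow, and 0.117 adjusted over 7 pairs). The log2 ratio of ID3 to ID4 lay between 3.23 and 3.34 in control and between 3.23 and 3.35 with SAR, a difference of 0.02 (exact permutation p = 0.7), with overlapping groups. MSX1 over MSX2 went from a log2 ratio of -1.17 ± 0.294 to 0.93 ± 0.458 (SD, n = 3, exact permutation p = 0.1), on 10 to 44 reads per gene and library. These differences depend on the pseudocount, and so does which pairs reach the smallest p. With a pseudocount of 1, ID1 to ID4 differed by -0.16 (exact permutation p = 0.4) and ID3 to ID4 by 0.23 (exact permutation p = 0.1). ID2 to ID4 then differed by -0.44 and MSX1 to MSX2 by 0.80.

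**Figure D3:**
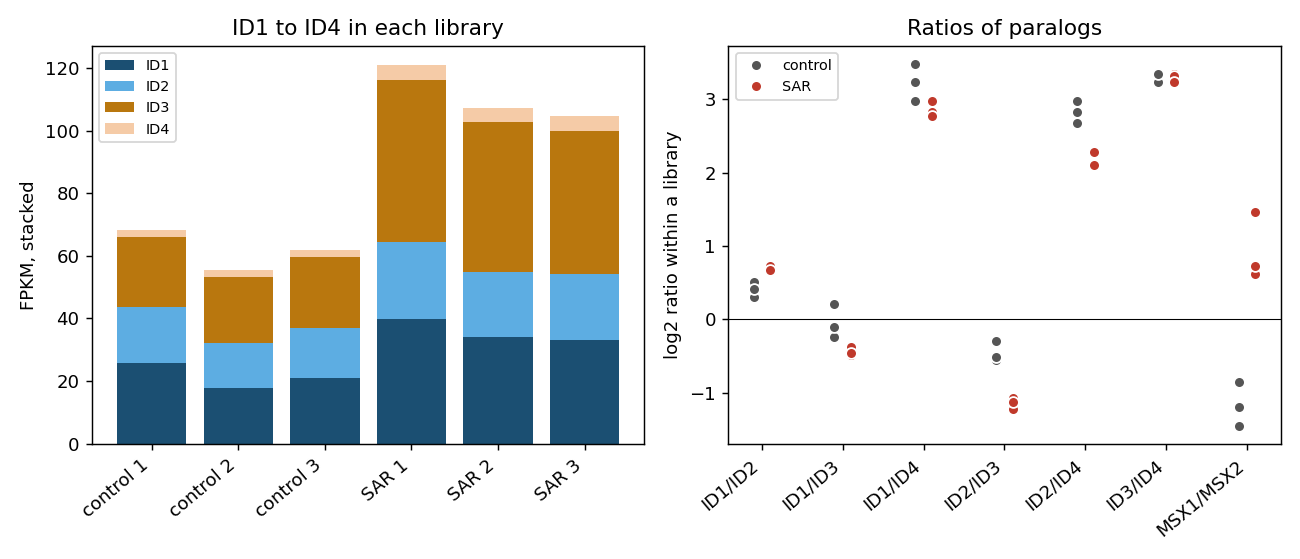
Left, FPKM of ID1 to ID4 stacked for each of the 6 libraries. Right, log2 ratio of paired paralogs in each library, control in grey and SAR in red. The SAR stacks stand at 104.7 to 121.0 FPKM and the control stacks at 55.4 to 68.2. With the pseudocount of 0.1 used here, the ID3/ID4 ratio overlaps between groups while the other 6 do not.

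The paralogs shared only short stretches of sequence. The longest identical run between transcripts of any 2 ID genes was 21 bases (ID1 and ID2), and 28 bases between MSX1 and MSX2, against reads of 150 bases. In windows of 50 bases, 2.6% of those of MSX2 also occurred in another gene, among them the pseudogene MSX2P1, and 0.7% of those of ID2. The 5 other genes shared none. ID2-AS1, on the opposite strand, overlaps 38 exon bases (1.7%) of ID2 and had between 0.313 and 0.576 FPKM in the 6 libraries. The strand setting of the counting is not given in the sources used here.

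The E proteins are the ubiquitous bHLH factors that ID proteins bind. None of TCF3, TCF4 and TCF12 passed the test, with log2 fold changes of 0.14 (adjusted p = 0.0904 from limma), 0.23 (0.0991) and -0.04 (0.724). TCF4 passed with a count-based fit (voom). Their summed level was 44.6 ± 0.756 FPKM in control and 47.9 ± 0.522 with SAR (SD, n = 3). The ID sum over the E protein sum was 1.51, 1.27 and 1.38 in control and 2.51, 2.27 and 2.17 with SAR (exact permutation p = 0.1). Of 25 tissue-restricted bHLH factors, which need an E protein partner, 5 reached the minimum level. OLIG3, a neural progenitor factor listed at 0 in control replicates 2 and 3 and at 2.32 to 4.85 FPKM with SAR, passed the test (adjusted p = 0.000981, limma), and reached the minimum only through its level with SAR.

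Among the other genes of the BMP pathway, the ligands BMP2 and BMP7 rose and SMAD6, an inhibitory SMAD, had the lowest log2 fold change. Of 66 genes in 5 lists, 37 were tested, 10 were higher and 8 were lower (adjusted p under 0.05, limma, with 23.7% and 9.55% of all tested genes). Their median log2 fold change was 0.028, against 0.12 over all genes. After rescaling, 8 were higher and 10 lower, where 2259 and 2538 of all 16371 tested genes were, against 3885 and 1563 without rescaling. With a log2 fold change past 1 as well, 5 were higher and 5 lower, where 3.41% and 1.58% of all tested genes were. The counts given below for each of the 5 lists use the adjusted p alone, without rescaling, and some of them change after it. They stand against 23.7% higher and 9.55% lower of all tested genes.

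Of 13 BMP ligands, 4 were tested and 2 were higher. BMP2, at 39.7, 44.1 and 45.7 FPKM in control and 68.7, 62.9 and 59.5 FPKM with SAR, was the most abundant ligand and rose by 0.56 on the log2 scale (adjusted p = 0.00327, limma). BMP7 had 2.39, 2.17 and 2.24 FPKM in control and 7.91, 6.94 and 6.83 FPKM with SAR, and rose by 1.63 on the log2 scale (adjusted p = 0.000137, limma). BMP4, at 5.19 ± 0.515 and 5.94 ± 0.537 FPKM (SD, n = 3), overlapped between the groups and did not pass (adjusted p = 0.173).

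The secreted antagonists, which hold ligands away from receptors, moved in both directions. Of 17 genes 10 were tested, 3 were higher and 4 were lower. CHRD, which encodes chordin, had 0.414, 0.217 and 0.192 FPKM in control and 2.32, 1.86 and 2.12 FPKM with SAR (log2 fold change 2.60, adjusted p = 0.00114 from limma), and reached the minimum only through the SAR group. CER1, an antagonist of BMP, Nodal and Wnt made by anterior endoderm, fell from 3540.1, 4603.1 and 4167.5 FPKM to 1644.7, 1714.1 and 1691.3 FPKM (-1.28, adjusted p = 0.000683 from limma). TWSG1, a BMP-binding protein, fell by 0.50 on the log2 scale, and FST (follistatin, which binds activin) rose by 1.04. BMPER fell by 1.11 on the log2 scale, and FSTL3 was at 0.45 and lost its call under 7 of 15 alternatives.

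Of 11 receptors and co-receptors 9 were tested. BMPR2, the type II BMP receptor, fell from 10.7, 12.0 and 11.3 FPKM to 5.33, 5.24 and 5.23 FPKM, with no overlap (log2 fold change -1.09, adjusted p = 0.000208 from limma). RGMA, a BMP co-receptor, rose by 0.60 (adjusted p = 0.0026). The other 7 did not pass, among them the type I receptors BMPR1A (adjusted p = 0.973, limma) and ACVR1 (0.203), and ACVR1 and ACVR2B passed as lower after rescaling.

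All 11 SMADs and intracellular inhibitors were tested, 2 higher and 3 lower. SMAD6, which blocks BMP receptor signaling and is itself a BMP target, had 5.19, 5.86 and 5.36 FPKM in control and 1.21, 1.23 and 1.25 FPKM with SAR. The SAR libraries lay close together and far below every control library, and the difference was -2.07 in log2 (limma adjusted p = 7.96e-05). SMAD7, the inhibitor shared with activin and TGF-beta signaling, went from 5.76 ± 0.516 to 3.25 ± 0.153 FPKM (SD, n = 3) and was lower, with -0.80 in log2 (limma adjusted p = 0.00147). SMAD1 rose by 0.51 (adjusted p = 0.00694), while SMAD5, at 18.4 and 18.8 FPKM the most abundant of the BMP SMADs, did not pass (0.03, adjusted p = 0.742).

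Further genes known to respond to BMP moved in both directions. Of 17 such genes, SMAD6 and SMAD7 among them, 6 were tested, with 2 higher and 2 lower. TBX3 rose from 0.628, 0.824 and 0.640 FPKM to 2.72, 2.22 and 1.37 FPKM (log2 fold change 1.42, adjusted p = 0.00724 from limma), and GATA3 from 0.964 ± 0.169 to 2.17 ± 0.552 FPKM (1.08, adjusted p = 0.00958). For both, SAR replicate 3 was the lowest SAR library. HAND1, ISL1, TFAP2A and GATA2, BMP targets of mesoderm and amnion, had means under 0.3 FPKM in both groups and were not tested.

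**Figure D4:**
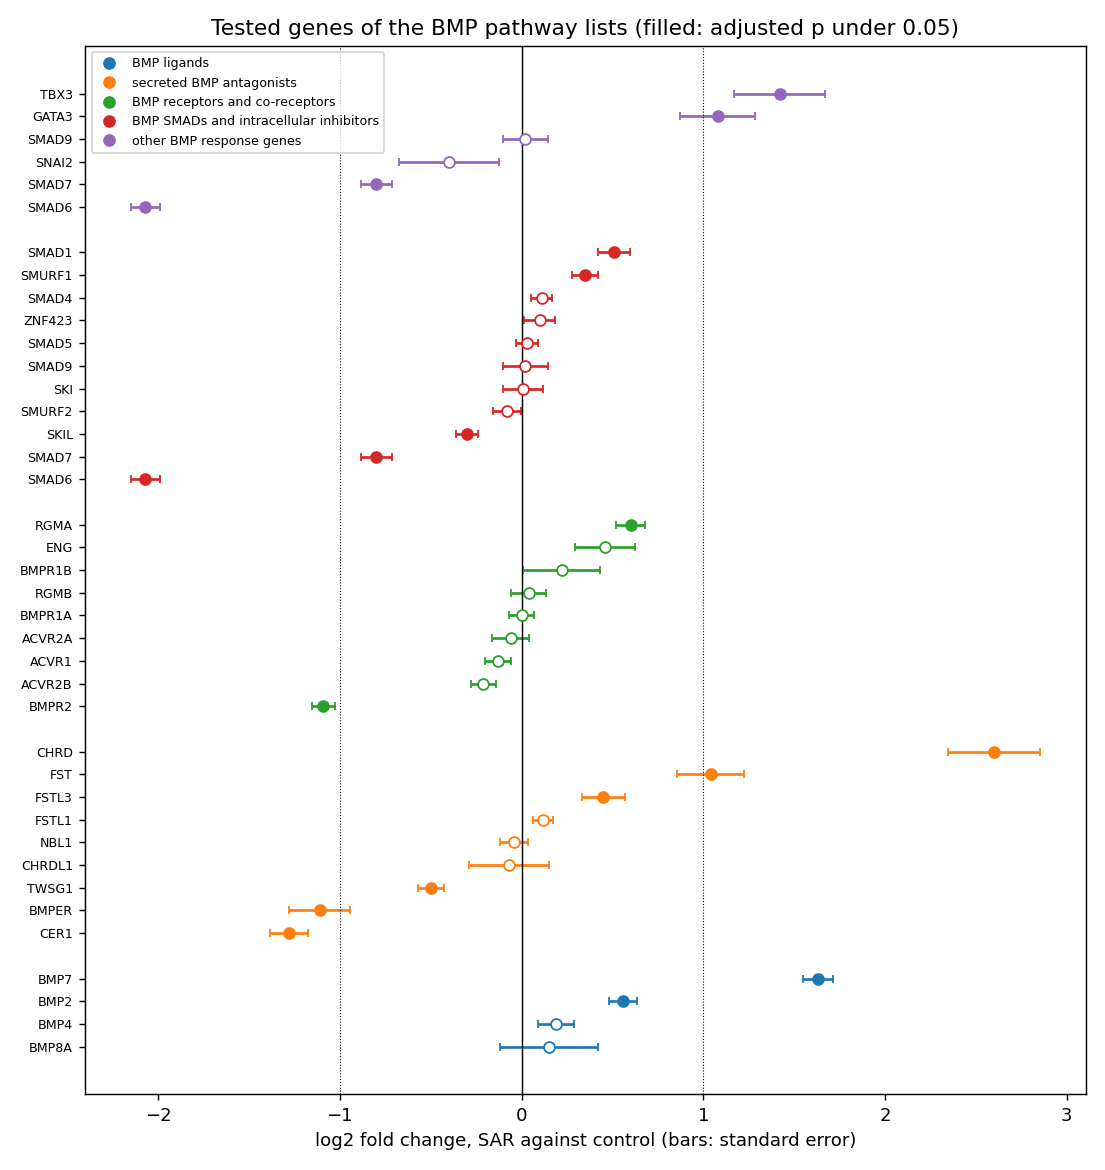
Log2 fold change with SAR of tested genes in the 5 BMP pathway lists, leaving out a gene not reported here, coloured by list, with standard errors. Filled points have an adjusted p under 0.05 and dotted lines mark 1 and -1. CHRD and BMP7 lie farthest right and SMAD6 farthest left, and SMAD6, SMAD7 and SMAD9 appear in 2 lists.

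CHIR99021 and activin A act on Wnt and on activin/nodal signaling, to which some of the 7 genes also respond. Of 12 Wnt feedback genes, all tested, 5 were higher and 1 was lower, where 23.7% and 9.55% of all tested genes were. SP5, a direct Wnt target, rose from 7.55, 5.75 and 5.34 FPKM to 21.0, 17.1 and 15.5 FPKM (log2 fold change 1.52, adjusted p = 0.00133 from limma). LEF1 rose by 2.03 and NOTUM was at -1.75 in log2. Each reached the minimum only through the group where it was high, and with a pseudocount of 1 they were at 0.76 and -0.85. AXIN2, often used as the Wnt readout, was at -0.02 (adjusted p = 0.834). Of 12 activin and nodal response genes, all tested, 2 were higher and 8 were lower, with a median log2 fold change of -0.67, and under 10 of 15 alternatives 1 was higher. The higher ones include a gene that reached the minimum only through its level with SAR. LEFTY1, a nodal antagonist (-2.04), and GSC, an organizer homeodomain factor (-1.48), were among the lower ones.

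Markers of other cell types moved beside these genes in both directions. Their part in the ID and MSX results was not tested, and some lists share genes with the BMP lists. The counts that follow stand against the same 23.7% higher and 9.55% lower of all tested genes. Of 11 mesoderm markers 5 were tested, 2 higher and 1 lower, with a summed level of 21.4 to 23.0 FPKM in control and 27.4 to 31.9 with SAR. TBXT, the primitive streak factor, rose from 3.51 ± 0.245 to 11.7 ± 2.15 FPKM (SD, n = 3), while MESP1, MSGN1 and FOXF1 had means under 0.06 FPKM in both groups. Of 11 amnion and surface ectoderm markers 4 were tested, 2 higher and 1 lower, and the sum of 469.8 to 513.6 FPKM in control and 557.6 to 634.1 with SAR was nearly all KRT8 and KRT18, keratins of many epithelia. Neural ectoderm markers had 3 of 5 tested genes higher (summed level 232.9 to 246.8 and 253.9 to 263.4 FPKM), with the mean of PAX6 under 0.1 FPKM in both groups. Neural crest markers had 3 of 7 higher and 1 lower (16.0 to 21.3 and 19.6 to 22.5 FPKM), with means of PAX3 and TFAP2A under 0.04 FPKM. In both neural lists some of the higher genes, OLIG3 among them, reached the minimum only through their level with SAR. Such genes entered these counts only because they were high with SAR. The minimum is set on the mean over all libraries, so it works alike in both directions. Pluripotency markers had 2 of 9 higher and 1 lower (545.0 to 674.4 and 684.4 to 715.7 FPKM), the lower one being NANOG at -1.30.

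The genes whose profile over the 6 libraries was most like each of the 6 tested ones were searched among 13474 genes whose mean reached 1 FPKM, by the Euclidean distance of centred log2(FPKM + 0.1). The nearest gene to ID3 was ID4 and the nearest to ID4 was ID3, at a distance of 0.122 over 6 libraries. Genes of like log2 fold change, here 1.13 for ID3 and 1.11 for ID4, lie close on this measure. Nearness is therefore not evidence apart from those values. WFDC2 (49.4 FPKM in control, 108.5 with SAR) and CACNG8 came next for ID3, and ARRDC2 and PTER for ID4. ID1 was nearest to MOCS3 (0.127), SYNJ2 and SULT1C4, and ID2 to NHERF2 (0.066), DGCR6L and ATP5F1D. MSX2 was nearest to PMEPA1 (0.193), an inhibitor of TGF-beta signaling that went from 9.77 to 3.61 FPKM, followed by NANOG (0.219) and PLK2 (0.237). BAMBI was nearest to SPATA5L1 (0.063), and LSM14A (0.068) was also close.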

How the data were processed

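Poly(A) RNA of 6 H1 samples was sequenced as 150-base paired-end reads. The authors deposited FPKM per gene for each library. The submitters' processing notes name HISAT2, featureCounts (Subread), DESeq2 and GRCh38.p13, with no versions, and the annotation release is not given in the sources used here. The members and gene lists were chosen with earlier results of these data known.

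log2(FPKM + 0.1) was tested with limma 3.58.1 (R 4.3.3; lmFit, eBayes with trend) for the 16371 genes whose mean reached 0.5 FPKM, with Benjamini-Hochberg adjustment and no replicate block. This scale understates changes of low genes. Calls used an adjusted p under 0.05, and, as a second rule, a log2 fold change past 1. Symbols matched 40304 of 40396 identifiers.

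Library totals were recovered from the FPKM and GENCODE 29 exon lengths. These lengths gave whole reads, within 0.001 read, for 22683 genes. For the others a length was searched that made all 6 values whole (40395 genes in all), so their read counts are less certain. Of the 7 genes, ID1 had the GENCODE 29 length and the other 6 a searched one. They give depth and a voom fit only. In a simulation of this comparison (16395 genes tested), limma called 181 of 199 altered genes with the correct sign and 9 unaltered ones. The altered genes were far fewer than in these data, and all had larger log2 fold changes than the 7 genes in the main fit. The simulation therefore does not cover calls of changes of that size.

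Named genes were the 7 members, the 3 list members with the smallest adjusted p per list, and the 3 nearest profiles per gene. Others (BMP4, FST, BMPER, FSTL3, BMPR1A, ACVR1, ACVR2B, SMAD5, GATA3, HAND1, ISL1, TFAP2A, GATA2, AXIN2 and markers) were named after their values were seen. Some genes that the rule or the lists held are not reported here. Same-numbered libraries deviated together with correlations of 0.073, 0.003 and 0.025 over genes, so the numbers were not taken as pairs. Python 3.11.15, pandas 2.3.3, scipy 1.17.1 and matplotlib 3.10.9 were used. The alternatives were other pseudocounts, filters, scalings and priors, voom, a replicate block and leaving out each library.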

Additional observations from a re-analysis of the deposited data

How the results depend on the processing

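ID1, ID3 and ID4 passed the adjusted p under all 15 alternatives, with log2 fold changes of 0.61 to 0.87, 1.01 to 1.17 and 0.87 to 1.14. ID2 passed under 13, and lay between 0.37 and 0.54 when single libraries were left out. BAMBI passed under 0 of 15 (adjusted p 0.105 to 0.935, limma). MSX2 passed under all 11 that tested it, at -1.56 to -0.49, the last with a pseudocount of 1. With no minimum level and a library left out, a choice made after seeing the data, MSX2 lay between -1.34 and -1.17 and lost its call in 3 of 6 fits, at -1.26 without SAR replicate 2 and at -1.34 and -1.28 without control replicates 2 and 3.

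Of the 7 genes, 1 was called higher in place of 2 after median-ratio rescaling, with a pseudocount of 1 and after quantile normalization. The number called lower was 0 in place of 1 with a pseudocount of 1 and with a minimum mean of 1 FPKM, where MSX2 was not tested, and the number lower by the adjusted p was 0 with that minimum too. It was 0 to 1 when single libraries were left out, since MSX2 then fell under the minimum. Of the genes of the 5 BMP lists, 3 were called higher after rescaling and 3 higher and 2 lower with a pseudocount of 1, in place of 5 and 5. When single libraries were left out, 3 to 5 were called higher and 3 to 5 lower.

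With a replicate block the ID1 log2 fold change was 0.74 (adjusted p = 0.00554, limma), and the block changed no call of the 7 genes. Over all genes, 559 were called higher and 259 lower, against 403 and 362 after rescaling, 169 and 141 with a pseudocount of 1, 340 and 409 after quantile normalization and 369 and 203 with a minimum of 1 FPKM. Depth limits MSX1 and MSX2, which rest on 10 to 44 reads in each library.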
